A study of Mus musculus with 10 samples.

Results

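The 10 genes described here make glutathione or belong to the thioredoxin and peroxiredoxin systems of the mouse, and they were picked by symbol from the 43432 genes counted. They are *Gclc*, *Gclm*, *Gss*, *Gsr*, *Slc7a11*, *Txn1*, *Txnrd1*, *Srxn1*, *Prdx1* and *Prdx6*, each found as a single row through its Ensembl identifier. The RNA came from RAW264.7 cells, an established mouse macrophage line, seeded in plates and given fresh medium before treatment. There were 5 conditions with 2 libraries each, numbered as replicates 1 and 2. The first was the solvent control without lipopolysaccharide (DMSO, 0.5%). The second was the same solvent with lipopolysaccharide (LPS, the bacterial cell wall component that activates macrophages) at 1 µg/mL, called DMSO + LPS. The other conditions received an unsaturated keto fatty acid isolated from marine cyanobacteria, called **1** here, at 32, 10 or 3.2 µM together with 1 µg/mL LPS. Cells had **1** or solvent for 1 h when LPS was added, and the RNA was taken at 12 h. Every dose of **1** was given with LPS, so none of these libraries shows **1** in resting cells. The labels call the replicates biological but do not say whether they came from separate cultures, so the p-values measure only the spread between these libraries.

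Glutathione is a tripeptide of glutamate, cysteine and glycine that keeps the inside of the cell reduced. The xCT transporter brings in cystine, glutamate-cysteine ligase joins glutamate to cysteine in the rate-limiting step, glutathione synthetase adds glycine, and glutathione reductase recycles the oxidized form with NADPH. Thioredoxin is a small protein that reduces disulfides in other proteins, including the peroxiredoxins that remove peroxides, and thioredoxin reductase recharges it. Several of these genes are textbook targets of the transcription factor Nrf2, which binds antioxidant response elements once its partner Keap1 is modified, and macrophages also raise some of them when LPS activates them.

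Library totals lay between 45966803 and 58976377 counts, and the smallest count of any of the 10 genes in any library was 889, with a counting error of 3.35%. Levels are given as CPM, each gene's counts scaled to a fixed library total after TMM scaling, which sets the libraries on a common scale by the genes that differ least. All 10 macrophage markers examined were detected, and their summed level lay between 8122 and 11995 CPM, lowest at 32 µM (8122 and 8512 CPM). Of 14 markers of other cell types, *Cd3e* and *Ncr1* were at 0 in every library and the summed level was 0.552 to 1.06 CPM in 8 libraries. It was 3.17 CPM in replicate 1 at 3.2 µM and 18.0 CPM in replicate 1 at 10 µM, which held 451 counts of the epithelial gene *Epcam* and 160 of the collagen gene *Col3a1*. Ribosomal RNA genes took 2.83% of the counts of replicate 2 at 32 µM and 0.153% to 0.333% elsewhere.

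The summed counts of the 10 genes were higher with LPS and higher again at each dose of **1**, although single genes did not all move this way. Together the 10 genes took 0.320% to 0.338% of all counts in DMSO and 0.887% to 0.892% in DMSO + LPS. The share was 0.960% in both libraries at 3.2 µM, 1.19% to 1.23% at 10 µM and 1.504% to 1.589% at 32 µM, so the libraries of the conditions did not overlap. *Prdx1* was the largest contributor in each condition. Without it the share was 0.202% to 0.209% in DMSO, 0.431% to 0.435% in DMSO + LPS, 0.449% to 0.451% at 3.2 µM, 0.516% to 0.527% at 10 µM and 0.624% to 0.636% at 32 µM.

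All 10 genes were among the 14172 tested with edgeR's quasi-likelihood test, in 1 fit of the 10 libraries, and p-values were adjusted over all of these genes by the Benjamini-Hochberg method (adjusted p). A gene passed the test at an adjusted p below 0.05 and was called if its change also reached 1.5-fold. With LPS alone, 6 of the 10 genes were called higher and none lower, where 14.6% of all genes tested were called higher. The genes called were *Slc7a11*, *Srxn1*, *Prdx1*, *Txnrd1*, *Gclm* and *Gsr*, and the share of all genes called lower was 13.6%. Without the fold cutoff 7 passed as higher, *Gss* being the seventh, and *Gclc* passed as lower, against 25.2% and 25.8% of all genes. Whether *Gss*, *Gclc* and *Txn1* passed with LPS depended on which library was left out. At 32 µM against DMSO + LPS, 4 were called higher (*Prdx1*, *Gclc*, *Gclm*, *Srxn1*) and none lower, where 1.27% of all genes were called higher. *Txnrd1* and *Gsr* also passed the test there without reaching 1.5-fold, which makes 6 of 10, against 4.06% of all genes that passed in this direction. On the 4 libraries compared alone, 7 passed in edgeR, against 2.6% of all genes, and 8 in DESeq2, against 4.44%. DESeq2 on all 10 libraries passed 7, against 5.32%. At 10 µM, 3 passed (*Prdx1*, *Srxn1*, *Gclm*), against 0.967% of all genes, and none was called, where 0.282% of all genes were. Fewer of the 10 genes, and fewer of all genes, passed at 10 µM without either library of DMSO + LPS. None of the 10 passed when edgeR was run on the 4 libraries compared alone, where 0.0824% of all genes passed as higher. DESeq2 passed 4 on the same 4 libraries, against 0.812% of all genes, and 5 on all 10 libraries, against 1.42%. At 3.2 µM none passed, and neither did any other gene (0%). At that dose 600 of all genes had an unadjusted p below 0.05, and 3 genes were called by edgeR's likelihood ratio test and 8 by DESeq2 on all 10 libraries, but none of the 10 genes. Fitted on the 4 libraries compared alone, *Prdx1* and *Txn1* passed there in both tools (2 of 10), without reaching 1.5-fold, where 2.45% of all genes passed as higher in edgeR and 2.11% in DESeq2.

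The median log2 fold change of the 10 genes was 0.74 with LPS, 0.04 at 3.2 µM, 0.32 at 10 µM and 0.52 at 32 µM, while the median over all genes tested lay between 0.0026 and 0.016 in these comparisons. The 3 dose comparisons share the DMSO + LPS libraries and are not independent of each other. RNA was taken from whole cultures, so fewer cells expressing a gene and less RNA of it per cell cannot be told apart. The smallest p that permuting 2 and 2 libraries can give is 0.333, and differences were therefore judged by tests fitted across all genes, with edgeR on the 10 libraries as the main one.

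**Figure D1:**
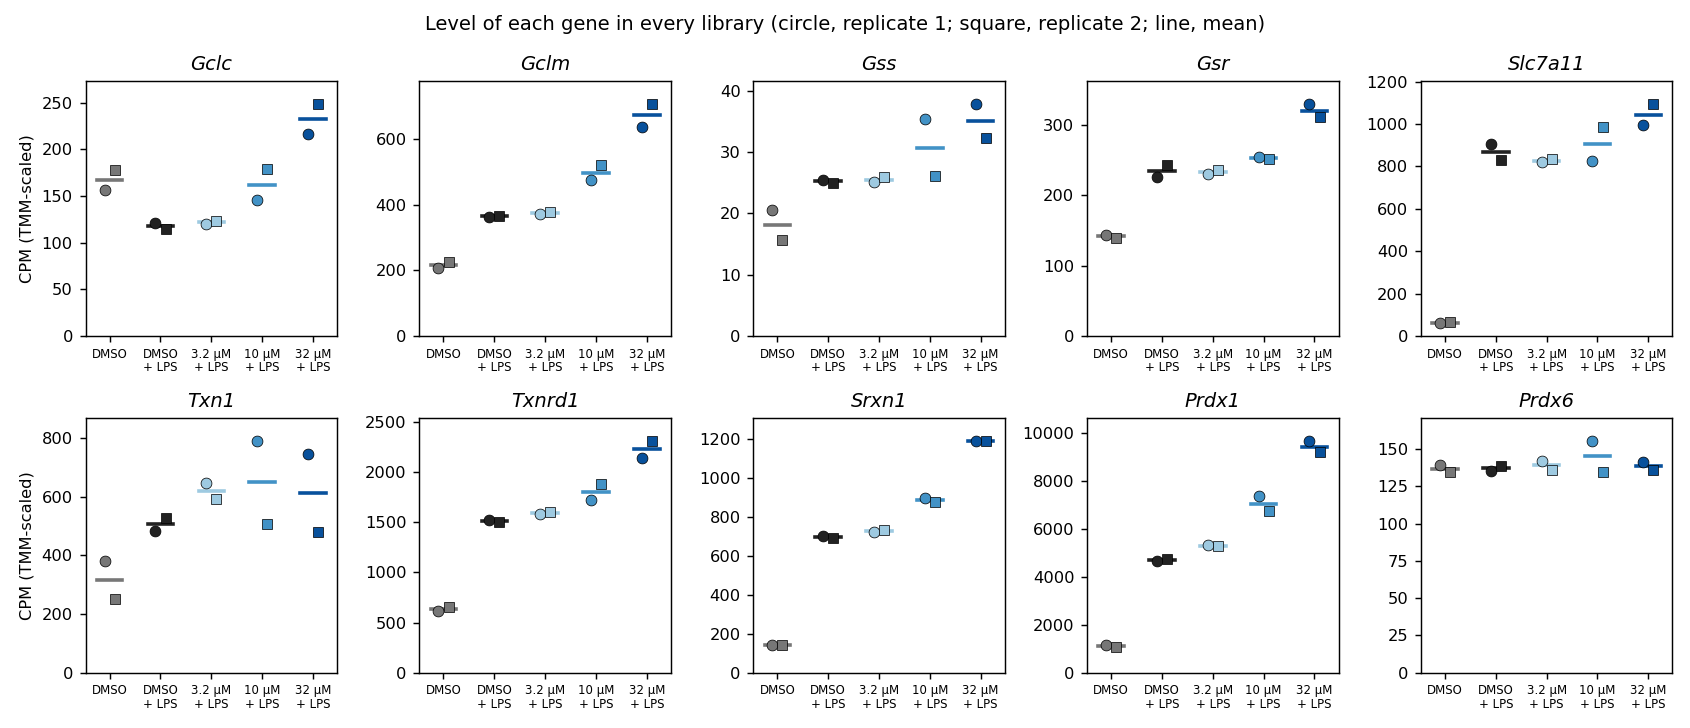
Level of each of the 10 genes in every library, in CPM on a linear axis from 0, by condition; circles are replicate 1, squares replicate 2 and lines the means (n = 2). *Prdx1*, *Srxn1*, *Txnrd1* and *Gclm* stand higher at 32 µM than at 10 µM and higher there than in DMSO + LPS, *Gclc* is lower in DMSO + LPS than in DMSO, and *Prdx6* stays between 135 and 155 CPM.

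*Gclc* (chr9:77754535-77794485 on GRCm38) encodes the catalytic subunit of glutamate-cysteine ligase. It was the only one of the 10 genes that fell with LPS, although with library size alone as the scaling *Prdx6* was lower too. Its level was 156 and 178 CPM in DMSO and 121 and 115 CPM in DMSO + LPS. It was 120 and 123 CPM at 3.2 µM, 145 and 179 CPM at 10 µM and 217 and 249 CPM at 32 µM. The LPS libraries lay below the DMSO libraries, the libraries at 10 µM spanned the DMSO range, and both libraries at 32 µM lay above all others. The log2 fold change was -0.50 ± 0.11 (SE) with LPS, an adjusted p of 0.00624 (0.0503 without replicate 2 of DMSO + LPS). At 32 µM it was 0.98 ± 0.11 against DMSO + LPS, a 1.97-fold rise with a 95% CI of 1.65 to 2.37 and an adjusted p of 0.00107. Against DMSO without LPS the level at 32 µM was 1.39-fold higher (adjusted p = 0.00795). This pass was lost without replicate 2 at 32 µM (adjusted p = 0.0560), without replicate 1 of DMSO (0.0602) and with library size alone (0.0669). The rise at 10 µM over DMSO + LPS was 0.46 ± 0.11 on the log2 scale and did not pass (adjusted p = 0.0957). Without replicate 1 at 10 µM, the library with *Epcam* counts, it was 0.60 with an adjusted p of 0.0386.

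*Gclm* (chr3:122245557-122270732) encodes the modifier subunit that makes the ligase more efficient. It rose in steps. Its level was 207 and 226 CPM in DMSO, 362 and 366 CPM in DMSO + LPS, 370 and 377 CPM at 3.2 µM, 474 and 521 CPM at 10 µM and 637 and 706 CPM at 32 µM. The libraries at 10 and at 32 µM lay above every library of the lower doses and of DMSO + LPS. The fold change was 1.68 with LPS (adjusted p = 5.36e-05), 1.37 at 10 µM (adjusted p = 0.0173) and 1.84 at 32 µM (95% CI 1.64 to 2.07, adjusted p = 1.54e-04). Without replicate 1 at 10 µM the adjusted p at that dose was 0.0254, and without replicate 2 it was 0.0517. It was 0.174 and 0.156 without replicate 1 or 2 of DMSO + LPS.

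The subunits of the ligase thus moved apart with LPS and rose together at 32 µM. The ratio of *Gclc* to *Gclm*, each as counts per kb of exon, was 1.28 ± 0.038 (SD, n = 2) in DMSO and 0.541 ± 0.025 in DMSO + LPS. It was 0.545 ± 0.0043 at 3.2 µM, 0.544 ± 0.044 at 10 µM and 0.578 ± 0.014 at 32 µM. The DMSO libraries stood far above the rest, while the means with LPS differed by less than the spread between the replicates at 10 µM. Ratios are descriptions of the libraries and were not tested.

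*Gss* (chr2:155563181-155592810, minus strand) encodes glutathione synthetase and was the least abundant of the 10 genes per kb in DMSO + LPS and at 32 µM. Its level was 20.6 and 15.7 CPM in DMSO, 25.5 and 24.9 CPM in DMSO + LPS, 25.1 and 25.9 CPM at 3.2 µM, 35.4 and 26.2 CPM at 10 µM and 37.8 and 32.4 CPM at 32 µM. Both libraries at 32 µM lay above both of DMSO + LPS, but replicates 1 and 2 differed by 0.22 to 0.43 on the log2 scale in DMSO, at 10 µM and at 32 µM. The fold change was 1.39 at 32 µM with an adjusted p of 0.132, and 1.39 with LPS with an adjusted p of 0.0443. The pass with LPS was lost without replicate 2 of DMSO (adjusted p = 0.272), without replicate 1 or 2 of DMSO + LPS (0.152 and 0.126) and without any library at 3.2 or 32 µM (0.0509 to 0.0741). At 10 µM the fold change was 1.22 (adjusted p = 0.602). The gene overlaps *Acss2* on the opposite strand, which held 385 to 648 counts, and how the strand was used in counting is not given in the sources used here, so reads of the pair may not be separated.

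*Gsr* (chr8:33652523-33698163) encodes glutathione reductase. Its level was 144 and 140 CPM in DMSO, 226 and 244 CPM in DMSO + LPS, 230 and 236 CPM at 3.2 µM, 254 and 251 CPM at 10 µM and 330 and 311 CPM at 32 µM. The libraries at 32 µM lay above all others, and those at 10 µM only slightly above DMSO + LPS. The fold change was 1.66 with LPS (adjusted p = 1.09e-05), 1.36 at 32 µM (adjusted p = 0.00121) and 1.08 at 10 µM (adjusted p = 0.513).

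*Slc7a11* (chr3:49892526-50443614, minus strand) encodes the xCT subunit of the cystine transporter and changed more with LPS than any other of the 10 genes. Its level was 59.2 and 67.0 CPM in DMSO and 906 and 829 CPM in DMSO + LPS. It was 820 and 833 CPM at 3.2 µM, 827 and 988 CPM at 10 µM and 993 and 1093 CPM at 32 µM. The DMSO libraries stood far below all others, the libraries at 3.2 and 10 µM overlapped those of DMSO + LPS, and those at 32 µM lay above them. LPS raised it 13.7-fold (log2 3.78 ± 0.11, adjusted p = 6.34e-08). At 32 µM the fold change was 1.20 with a 95% CI of 1.03 to 1.41 and an adjusted p of 0.156, which did not pass. At 10 µM it was 1.05 (adjusted p = 0.912).

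*Txnrd1* (chr10:82833951-82897712) encodes the cytosolic thioredoxin reductase, a selenoprotein. Its level was 618 and 651 CPM in DMSO, 1520 and 1504 CPM in DMSO + LPS, 1578 and 1607 CPM at 3.2 µM, 1720 and 1878 CPM at 10 µM and 2146 and 2313 CPM at 32 µM. The libraries of neighboring doses did not overlap. The fold change was 2.38 with LPS (adjusted p = 7.17e-07), 1.47 at 32 µM (95% CI 1.35 to 1.62, adjusted p = 5.17e-04) and 1.19 at 10 µM (adjusted p = 0.0715). The value at 32 µM lay just under the 1.5-fold needed for a call, and without replicate 1 at 32 µM it was 1.53-fold and called.

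*Txn1* (chr4:57943373-57956411, minus strand) encodes the cytosolic thioredoxin itself. Its level was 382 and 252 CPM in DMSO, 485 and 529 CPM in DMSO + LPS, 647 and 594 CPM at 3.2 µM, 791 and 507 CPM at 10 µM and 747 and 480 CPM at 32 µM. At 10 and 32 µM replicate 1 lay above both DMSO + LPS libraries, while replicate 2 lay among or below them. The fold change was 1.60 with LPS (adjusted p = 0.0802), 1.28 at 10 µM (adjusted p = 0.752) and 1.21 at 32 µM, with a 95% CI of 0.771 to 1.90 and an adjusted p of 0.678, and none of these passed. The value with LPS did pass, at 1.5-fold or more, with no count filter (adjusted p = 0.0138), in edgeR on the 4 libraries compared alone (0.0248), in the likelihood ratio test (0.0422) and without replicate 1 of DMSO (0.0430) or of 10 µM (0.0446). At 3.2 µM it was 1.22 with an adjusted p of 0.999, which came to 0.00918 in edgeR and 6.12e-06 in DESeq2 on the 4 libraries compared alone.

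The spread of *Txn1* moved with a property of the libraries. A short-transcript score was computed for each library as the median, over 276 protein-coding genes with transcripts under 1000 nt, of each gene's log2 CPM minus its mean over the libraries, leaving out ribosomal protein genes and the 10 genes. Replicate 1 exceeded replicate 2 in this score by 0.43 in DMSO, 0.41 at 10 µM, 0.41 at 32 µM and 0.08 at 3.2 µM, and was lower by a difference of -0.11 in DMSO + LPS. For *Txn1*, whose transcript of 1051 nt was the shortest of the 10, the same differences were 0.60, 0.64, 0.64, 0.13 and -0.12. With the score in the fit, *Txn1* passed at 32 µM (1.29-fold, adjusted p = 3.05e-06), at 10 µM (1.16-fold, adjusted p = 7.36e-04) and with LPS (1.30-fold, adjusted p = 8.15e-07). At 3.2 µM *Txn1* was then 1.05-fold with an adjusted p of 0.396 and did not pass. In that fit 9 of the 10 genes, all but *Prdx6*, passed at 32 µM, where 12% of all genes passed in this direction. *Gss* (1.45-fold, adjusted p = 4.81e-05) and *Slc7a11* (1.17-fold, adjusted p = 4.45e-04) were among them. At 10 µM 6 passed, where 5.25% did, and at 3.2 µM 1, where 0.649% did. The gene at 3.2 µM was *Prdx1*, 1.09-fold higher. The numbers called at 1.5-fold stayed at 4, 0 and 0. The score is a summary of these libraries, and its part in the differences was not tested.

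**Figure D2:**
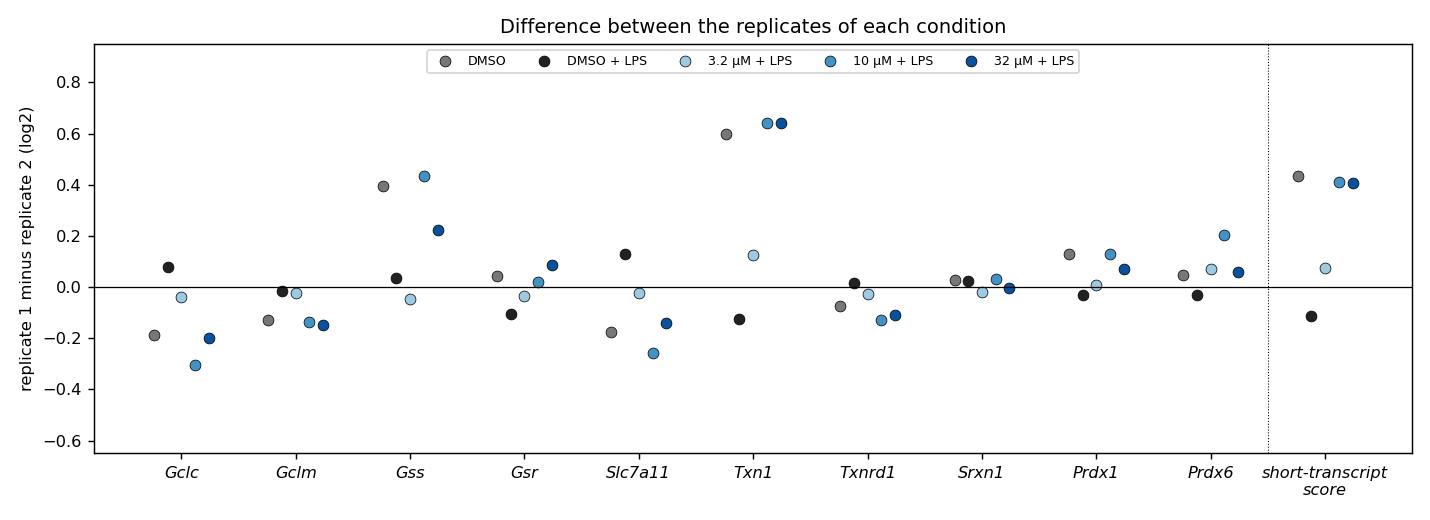
Difference between replicate 1 and replicate 2 of each condition, on the log2 scale, for the 10 genes and, right of the dotted line, for the short-transcript score; each point is 1 condition. *Txn1* shows the widest differences, 0.60 to 0.64 in DMSO and at 10 and 32 µM, where the score differs by 0.41 to 0.43, and *Srxn1* stays near 0.

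*Prdx1* (chr4:116685544-116700822) encodes an abundant cytosolic peroxiredoxin and was the most abundant of the 10 genes, per kb too. Its level was 1150 and 1050 CPM in DMSO, 4654 and 4749 CPM in DMSO + LPS, 5305 and 5268 CPM at 3.2 µM, 7359 and 6724 CPM at 10 µM and 9651 and 9179 CPM at 32 µM. The libraries of each condition lay above all libraries of the condition before it. LPS raised it 4.27-fold (adjusted p = 5.29e-08), and the mean rose from 4701 ± 67.7 CPM (SD, n = 2) in DMSO + LPS to 9415 ± 334 CPM at 32 µM. At 10 µM the fold change was 1.498 (95% CI 1.37 to 1.64, adjusted p = 0.00254), just under the 1.5-fold needed for a call. Leaving out replicate 1 or replicate 2 at 10 µM gave 1.43-fold and 1.54-fold, the second of which was called. At 3.2 µM it was 1.12-fold, with an unadjusted p of 0.0182 and an adjusted p of 0.999. On the 4 libraries compared alone, the adjusted p at 3.2 µM was 0.00379 in edgeR and 8.61e-05 in DESeq2. *Prdx1* has 3 close pseudogene copies among the genes counted, which together held 0.124% to 0.324% of its counts.

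*Srxn1* (chr2:152105516-152111376) encodes sulfiredoxin, which repairs overoxidized peroxiredoxins such as that made by *Prdx1*. Its replicates were nearly identical. The level was 144 and 141 CPM in DMSO, 704 and 693 CPM in DMSO + LPS, 724 and 734 CPM at 3.2 µM, 898 and 878 CPM at 10 µM and 1189 and 1191 CPM at 32 µM. No condition overlapped another. The fold change was 4.89 with LPS (adjusted p = 4.35e-09), 1.27 at 10 µM (95% CI 1.20 to 1.35, adjusted p = 0.00353) and 1.70 at 32 µM (95% CI 1.61 to 1.81, adjusted p = 9.42e-06). At 10 µM the adjusted p was 0.0207 without replicate 1 of that dose and 0.0531 without replicate 2 of DMSO + LPS. Of the 10 genes, *Srxn1* had the smallest adjusted p with LPS and at 32 µM.

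The ratio of *Srxn1* to *Prdx1* per kb of exon was 0.140 ± 0.0069 (SD, n = 2) in DMSO and 0.160 ± 0.0041 in DMSO + LPS. It was 0.149 ± 0.0022, 0.136 ± 0.0065 and 0.137 ± 0.0050 at 3.2, 10 and 32 µM. Both DMSO + LPS libraries (0.163 and 0.157) lay above all others, and the means were lowest at 10 and 32 µM, while between DMSO and 32 µM the levels themselves rose 8.33-fold for *Srxn1* and 8.56-fold for *Prdx1*. The ratio of *Txnrd1* to *Txn1* was 0.311 ± 0.10 in DMSO and 0.443 ± 0.030 in DMSO + LPS. It was 0.382 ± 0.028, 0.436 ± 0.16 and 0.571 ± 0.20 at 3.2, 10 and 32 µM, and so did not rise steadily. The DMSO libraries (0.240 and 0.382) lay below those of DMSO + LPS (0.465 and 0.422) and of 32 µM (0.426 and 0.715), which overlapped each other, but overlapped those of 3.2 µM (0.362 and 0.402) and 10 µM (0.323 and 0.549).

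**Figure D3:**
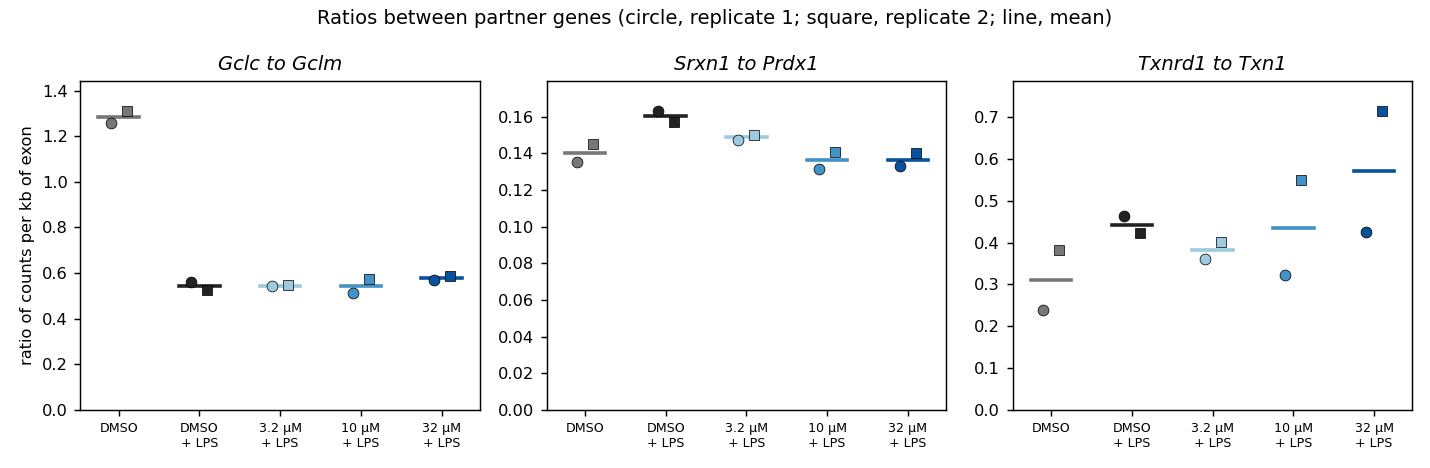
Ratios between partner genes in each library, as counts per kb of exon, by condition; circles are replicate 1, squares replicate 2 and lines the means (n = 2). The *Gclc* to *Gclm* ratio is 1.28 in DMSO and 0.541 to 0.578 in the conditions with LPS, the *Srxn1* to *Prdx1* ratio stays between 0.136 and 0.160 in the means, and the replicates of the *Txnrd1* to *Txn1* ratio lie wide apart in 3 conditions.

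*Prdx6* (chr1:161240112-161251219, minus strand) encodes the 1-Cys peroxiredoxin, which is reduced by glutathione rather than by thioredoxin. With TMM scaling it passed in no comparison. Its level was 139 and 135 CPM in DMSO, 136 and 139 CPM in DMSO + LPS, 142 and 136 CPM at 3.2 µM, 155 and 135 CPM at 10 µM and 142 and 136 CPM at 32 µM, and all conditions overlapped. The 95% CI of its fold change ran from 0.897 to 1.12 with LPS and from 0.906 to 1.13 at 32 µM, so changes as large as those of *Prdx1* lay outside the intervals. Scaled by library size alone, the median log2 fold change of all genes with LPS shifted by -0.20, and *Prdx6* was then at -0.20 with an adjusted p of 0.0360, a value equal to that shift.

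**Figure D4:**
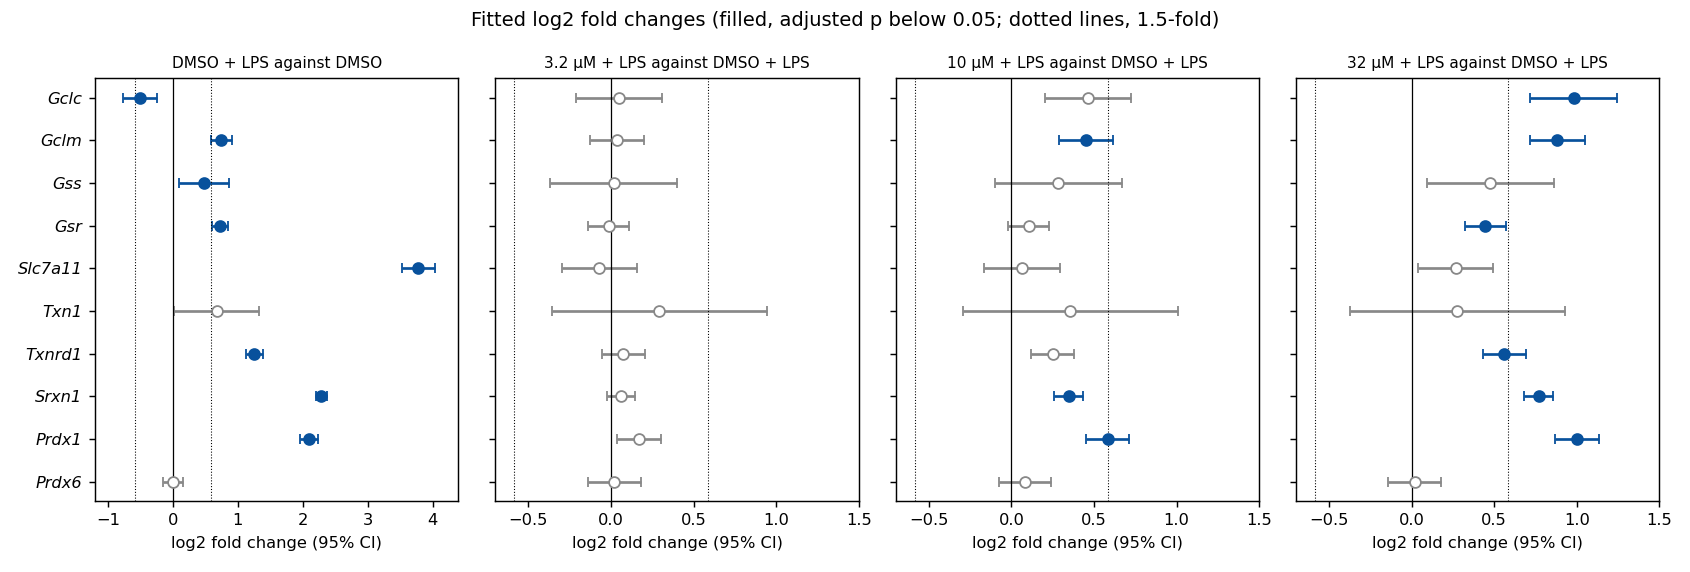
Fitted log2 fold change of each of the 10 genes with its 95% CI, for LPS alone and for each dose of **1** against DMSO + LPS; filled points have an adjusted p below 0.05 and dotted lines mark 1.5-fold (the first panel has a wider axis). With LPS, *Slc7a11* stands at 3.78 and *Gclc* alone at a negative value that passed, while at 32 µM *Gclc*, *Gclm*, *Srxn1* and *Prdx1* lie past the 1.5-fold line.

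The doses also differed from each other. Between 10 and 32 µM, 5 of the 10 genes passed the test, all higher at 32 µM, against 0.804% of all genes in that direction, and none was called, where 0.169% of all genes were. They were *Srxn1* (1.34-fold, adjusted p = 7.69e-04), *Prdx1* (1.34-fold, adjusted p = 0.00758), *Gsr* (1.27-fold, adjusted p = 0.0134), *Gclm* (1.35-fold, adjusted p = 0.0176) and *Txnrd1* (1.24-fold, adjusted p = 0.0289). *Gclc* was 1.43-fold higher at 32 than at 10 µM with an adjusted p of 0.0614. *Slc7a11* (1.15-fold), *Gss* (1.14-fold), *Txn1* (0.945-fold) and *Prdx6* (0.956-fold) had adjusted p of 0.475 to 0.935. Without replicate 1 at 10 µM or either library at 32 µM, fewer of the 10 and fewer of all genes passed. The same held without either library of DMSO + LPS or 3.2 µM. None of the 10 passed with edgeR on the 4 libraries compared alone, where 0% of all genes passed as higher. The number that passed was 6 with DESeq2 on these or on all 10 libraries, against 0.47% and 1.25% of all genes. With the short-transcript score in the fit it was 9, against 3.53% of all genes in that direction. Between 3.2 and 10 µM, 3 passed and were higher at 10 µM, against 0.254% of all genes, and none was called, where 0.0706% were. These were *Srxn1* (1.22-fold, adjusted p = 0.0177), *Prdx1* (1.33-fold, adjusted p = 0.0230) and *Gclm* (1.33-fold, adjusted p = 0.0489). *Gclc* was 1.33-fold (adjusted p = 0.230), *Gss* 1.21-fold (0.793), *Txnrd1* 1.13-fold (0.356), *Slc7a11* 1.098-fold (0.847), *Gsr* 1.09-fold (0.616), *Txn1* 1.05-fold (0.999) and *Prdx6* 1.04-fold (0.954) higher in the fit, and these did not pass. Between 3.2 and 10 µM, fewer of the 10 and fewer of all genes passed without either library of DMSO + LPS or of 3.2 µM. This was also so without replicate 1 at 10 µM. The number that passed was 0 with edgeR on the 4 libraries compared alone, where 0% of all genes passed. It was 3 and 4 with DESeq2 on these and on all 10 libraries, against 0.442% and 0.802% of all genes, and 7 with the score, against 2.38% of all genes. Against resting cells in DMSO, 8 genes were called higher at 32 µM, where 13.9% of all genes were. These were the 10 without *Prdx6* and *Gclc*, and *Gclc* passed without reaching 1.5-fold, which makes 9 against 25.7% of all genes. The 9 became 8 without either library of DMSO or of 32 µM and on the 4 libraries compared alone in both tools, and 7 with library size alone.

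Per kb of exon, the order of the mean levels in DMSO + LPS ran from *Prdx1* (1545 CPM per kb) through *Txn1* (482), *Srxn1* (248), *Txnrd1* (213), *Gsr* (85.3), *Slc7a11* (62.3), *Gclm* (57.9), *Gclc* (31.3) and *Prdx6* (28.5) to *Gss* (4.27). At 32 µM the order began with the same genes, *Prdx1* at 3094, *Txn1* at 584, *Srxn1* at 422 and *Txnrd1* at 315 CPM per kb. *Gclm*, at 107 CPM per kb, then stood above *Slc7a11* at 74.9. The neighbors *Slc7a11* and *Gclm* in DMSO + LPS differed by about the SD of *Slc7a11* (3.89 CPM per kb). With the length of the longest transcript in place of all exons, *Txnrd1* came to 417 CPM per kb in DMSO + LPS and changed places with *Srxn1*, as did *Slc7a11* with *Gsr* and *Prdx6* with *Gclc*. At 32 µM *Txnrd1* then stood above both *Txn1* and *Srxn1*, and *Gclm* above *Gsr*.

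Promoter windows were read from RefSeq (GRCm38.p6), 250 bases before to 50 bases after each annotated start, for 7 of the 10 genes (9 windows, as *Txnrd1* has 3 starts). *Gclc*, *Gsr* and *Prdx6* were not matched. The core of the antioxidant response element, TGACNNNGC, was searched on both strands, and TGAGNNNGC was added after the sequences had been seen. The first was found in 4 of the 9 windows and in 12.4% of the 32851 mouse windows of this length. The second was found in 3 of the 9 and in 17.6% of all windows. Windows are shown for the genes called at 32 µM that have one, for *Txnrd1*, which lay just under the call, and for *Slc7a11*, which rose most with LPS. They are written 5′ to 3′ on the strand of the gene, with every match in capitals, also where it reads on the opposite strand.
Gclm, chr3:122245307-122245606, plus strand: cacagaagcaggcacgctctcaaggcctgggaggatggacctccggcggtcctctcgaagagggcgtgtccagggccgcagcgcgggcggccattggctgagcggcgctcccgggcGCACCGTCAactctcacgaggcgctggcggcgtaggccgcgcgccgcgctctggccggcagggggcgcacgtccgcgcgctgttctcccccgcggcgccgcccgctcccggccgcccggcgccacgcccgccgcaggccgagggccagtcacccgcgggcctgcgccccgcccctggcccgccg
Txnrd1, second start, chr10:82858956-82859255, plus strand: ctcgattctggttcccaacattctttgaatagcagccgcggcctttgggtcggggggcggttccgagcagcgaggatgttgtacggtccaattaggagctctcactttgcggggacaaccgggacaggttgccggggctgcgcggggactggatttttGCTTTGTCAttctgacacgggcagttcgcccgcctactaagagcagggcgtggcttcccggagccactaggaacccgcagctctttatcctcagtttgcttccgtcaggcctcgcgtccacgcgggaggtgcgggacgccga
Srxn1, chr2:152105274-152105573, plus strand: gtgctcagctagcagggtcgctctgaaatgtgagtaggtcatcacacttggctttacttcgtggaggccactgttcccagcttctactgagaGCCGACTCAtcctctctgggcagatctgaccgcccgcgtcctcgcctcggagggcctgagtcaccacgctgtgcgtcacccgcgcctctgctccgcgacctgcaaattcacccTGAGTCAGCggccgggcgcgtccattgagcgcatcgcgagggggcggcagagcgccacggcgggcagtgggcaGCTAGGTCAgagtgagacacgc
Prdx1, chr4:116685349-116685648, plus strand: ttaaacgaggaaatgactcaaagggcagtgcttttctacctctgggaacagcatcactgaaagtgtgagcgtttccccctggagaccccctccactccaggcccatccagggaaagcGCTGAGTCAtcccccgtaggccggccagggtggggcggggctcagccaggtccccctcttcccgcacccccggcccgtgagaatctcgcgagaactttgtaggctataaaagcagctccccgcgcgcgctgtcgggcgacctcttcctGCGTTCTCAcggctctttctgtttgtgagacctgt
Slc7a11, chr3:50443564-50443863, minus strand: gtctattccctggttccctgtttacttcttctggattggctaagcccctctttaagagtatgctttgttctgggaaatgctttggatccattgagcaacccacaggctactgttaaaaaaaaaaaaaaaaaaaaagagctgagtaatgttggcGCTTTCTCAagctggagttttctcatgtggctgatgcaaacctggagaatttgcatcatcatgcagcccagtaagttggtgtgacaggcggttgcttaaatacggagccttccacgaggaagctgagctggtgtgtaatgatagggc

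Read in the direction of the motif, *Prdx1* carried TGACTCAGC with its first base in the window 133 bases before the start, *Gclm* TGACGGTGC 134 bases before it, and *Txnrd1* TGACAAAGC 92 bases before its second start. *Srxn1* carried TGAGTCAGC 45 bases and TGAGTCGGC 158 bases before the start, and TGACCTAGC 28 bases after it. *Prdx1* also held TGAGAACGC 15 bases after the start, and *Slc7a11* held TGAGAAAGC 97 bases before it. Neither motif was found in the windows of *Gss*, *Txn1* or the other *Txnrd1* starts. A match describes the letters only, since nothing in these data measured binding, and the absence of a match covers only these 300 bases.

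Genes of the wider pathway passed the test in both directions at 32 µM. Of 12 genes that use glutathione (glutathione peroxidases, glutaredoxins, glyoxalases), 10 were tested, and at 32 µM none was called higher and 1 lower, with a median log2 fold change of -0.02. Of 15 genes of cysteine and glutamate supply and glutathione breakdown, 10 were tested, with none called higher, 1 lower and a median of -0.07. Of 18 other thioredoxins, peroxiredoxins and related reductases, all were tested, none was called and the median was -0.09. Over all genes tested, 1.27% were called higher and 2.91% lower in this comparison, and the median was 0.0082. Without the fold cutoff, 3 of the 38 passed as higher at 32 µM, against 4.06% of all genes, and 4 as lower, against 5.72%. Those higher were *Esd*, an S-formylglutathione hydrolase gene (1.34-fold, adjusted p = 3.06e-04), *Slc3a2*, whose product pairs with xCT (1.28-fold, adjusted p = 0.00206), and the amino acid transporter gene *Slc1a4* (1.22-fold, adjusted p = 0.0355). The 4 lower were *Glrx* and *Cth*, which were called, *Sesn2*, a sestrin gene (log2 -0.36, adjusted p = 0.0166), and the glutamine transporter gene *Slc1a5* (log2 -0.22, adjusted p = 0.0406). At 10 µM *Esd* passed as higher (1.17-fold, adjusted p = 0.0228) and *Glrx* as lower (log2 -0.40, adjusted p = 0.0370), 1 of 38 each, against 0.967% and 1.7% of all genes. At 10 and 3.2 µM none of the genes in these lists was called, and at 3.2 µM none passed. No test compared these lists with the 10 genes.

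The genes called lower were *Glrx* and *Cth*, and both had risen with LPS. *Glrx*, the cytosolic glutaredoxin that removes glutathione from proteins, was at 32.4 and 29.7 CPM in DMSO, 282 and 288 CPM in DMSO + LPS, 274 and 278 CPM at 3.2 µM, 227 and 206 CPM at 10 µM and 176 and 155 CPM at 32 µM. LPS raised it 9.17-fold (adjusted p = 3.43e-08), and at 32 µM its log2 fold change against DMSO + LPS was -0.78 ± 0.076 (SE, adjusted p = 4.19e-04). *Cth*, which makes cysteine from cystathionine, was at 2.41 and 2.50 CPM in DMSO, 10.9 CPM in both libraries of DMSO + LPS, 11.35 and 11.04 CPM at 3.2 µM, 10.4 and 10.1 CPM at 10 µM and 7.23 and 6.86 CPM at 32 µM. Its log2 fold change at 32 µM was -0.63 ± 0.071 (adjusted p = 9.81e-04). For both genes the libraries at 32 µM lay below those of the other conditions with LPS and above those of DMSO.

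Across the 10 libraries the 10 genes did not all share a pattern. Pearson's r of a gene's log2 CPM with the mean of the other 9, each standardized, was 0.81 to 0.98 for 8 of them, 0.29 for *Prdx6* and 0.14 for *Gclc*. Among 9552 other genes with a mean of at least 5 CPM, the closest to the mean pattern of the 10 were *Prr13* and *Blvrb*, the latter a biliverdin reductase (both r = 0.996), the aldo-keto reductase genes *Akr1a1* (0.994) and *Akr1b8* (0.993), and *Slc30a1*, a zinc exporter gene (0.992). These correlations describe 10 libraries that fall into 5 conditions and share the step between DMSO and LPS. *Akr1b8* had log2 fold changes of 1.60 with LPS and of 0.21, 0.77 and 1.17 at 3.2, 10 and 32 µM.

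Leaving out the library with ribosomal RNA counts at 32 µM (replicate 2) gave log2 fold changes against DMSO + LPS of 0.88 for *Gclc*, 0.81 for *Gclm*, 0.77 for *Srxn1* and 1.04 for *Prdx1*, all still called. *Gsr* (1.40-fold, adjusted p = 0.00490) and *Txnrd1* (1.42-fold, adjusted p = 0.00448) then still passed, and *Gss* (1.499-fold), *Txn1* (1.47-fold), *Slc7a11* (1.14-fold) and *Prdx6* (1.03-fold) still did not. Leaving out the library with *Epcam* counts at 10 µM (replicate 1) gave 1.24-fold for *Txnrd1* (adjusted p = 0.0555), 1.07-fold for *Gsr*, 1.14-fold for *Slc7a11*, 1.04-fold for *Gss*, 1.00-fold for *Txn1* and 0.983-fold for *Prdx6*, none of which passed. Leaving out replicate 1 at 3.2 µM gave fold changes at that dose of 0.961 (*Slc7a11*) to 1.17 (*Txn1*), and 0 of the 10 passed. Macrophage markers also moved at 32 µM, with *Fcgr1*, *Itgam* and *Lyz2* called lower (3 of 10, log2 -1.70, -0.67 and -0.61, where 2.91% of all genes were) and a median log2 fold change of -0.23. Without the fold cutoff 5 passed as lower, against 5.72% of all genes, and 1 as higher, *Csf1r* (1.32-fold, adjusted p = 0.00118), against 4.06%. At 10 µM 4 passed as lower, *Fcgr1* (log2 -0.68, adjusted p = 0.00875), *Cd14*, *Itgam* and *Adgre1*, against 1.7% of all genes. The 1 that passed as higher was again *Csf1r*, against 0.967%. Of these only *Fcgr1* was called (1 of 10), where 0.579% of all genes were called lower. The part of these markers in the results was not tested.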

How the data were processed

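RNA-seq of 10 RAW264.7 libraries was used. Per the study's methods, libraries were made from poly(A)-enriched RNA with a directional kit and sequenced as paired reads on 1 lane. The authors deposited raw counts of reads per mouse Ensembl gene, without normalization. The submitters' processing notes name Trimmomatic, FastQC, STAR, DESeq2 and the build mm10. The counting tool, its strand setting and the annotation are not given in the sources used here. Tables of the authors' own fold changes and p-values were not used.

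Identifiers were matched to GENCODE M21 on GRCm38 (42548 of 43432). Genes were filtered with filterByExpr (minimum count 10), scaled by TMM and fitted in edgeR 4.0.16 (R 4.3.3) with 1 mean per condition, leaving 5 residual degrees of freedom. Quasi-likelihood tests were adjusted by Benjamini-Hochberg. A call needed 1.5-fold, the cutoff of the study, and an adjusted p below 0.05. DESeq2 1.42.0 was an alternative. Library totals (45966803 to 58976377), together with the TMM factors, set the scale of the CPM values and of the fit. Levels per kb used the merged exon length. Near-identical copies were sought with blastn 2.17.0 (at least 300 bases at 90% identity, same strand). The steps were tested on simulated data.

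By rule, the 10 genes, the genes of the wider lists called at a dose of **1** and the 5 genes with the highest r were named. Other genes of these lists were named after their values had been seen. The genes, lists and tests were chosen with earlier results of these data known. The TGAGNNNGC search, the counts of genes passing with the short-transcript score and the exchanged pairing were added after seeing the data. The alternatives tried were scaling by DESeq2's factors or by library totals only, testing all genes or those with a mean of 5 CPM or more, adding the replicate number or the short-transcript score to the fit, using edgeR or DESeq2 on just the 4 libraries of a comparison or DESeq2 on all 10, the likelihood ratio test, other fold cutoffs, the longest transcript as length, and omitting 1 library at a time. A condition left with 1 library was then taken to vary like the rest.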

Additional observations from a re-analysis of the deposited data

How the results depend on the processing

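The number of the 10 genes called at 32 µM against DMSO + LPS was 4 under the alternatives run, except for 1 with a 2-fold cutoff (*Prdx1*), 6 with no fold cutoff and 4 to 5 when libraries were left out (*Txnrd1* was added without 32 µM replicate 1). At 10 µM it was 0, but 1 with library size alone (*Prdx1*), 3 with no fold cutoff and 0 to 1 when libraries were left out: *Prdx1* without DMSO + LPS replicate 2 (log2 0.60) or 10 µM replicate 2 (0.62), and *Gclc* without 10 µM replicate 1 (0.60). Between 32 and 10 µM it was 0, but 5 with no fold cutoff and 0 to 1 when libraries were left out (*Gclc*, 0.68, without 10 µM replicate 2). Between 10 and 3.2 µM it was 0, but 3 with no fold cutoff. Leaving out libraries gave 0 at 3.2 µM, 6 to 9 with LPS and 7 to 8 for 32 µM against DMSO. The 9 came without DMSO replicate 1, where *Gclc* (-0.59), *Gss* (0.69) and *Txn1* (1.00) were also called. With library size alone, *Gclm* (0.54) and *Gsr* (0.52) fell under 1.5-fold with LPS and *Gclc* (-0.71) was called lower, which left 4 higher and 1 lower, and *Gss* did not pass (adjusted p = 0.212). The call of *Txn1* at 32 µM against DMSO was lost with library size alone (adjusted p = 0.0538), on the 4 libraries compared (0.0613 in edgeR, 0.0658 in DESeq2) and without DMSO replicate 2 (0.157) or 32 µM replicate 1 (0.152). With the longest transcript as length, the *Txnrd1* to *Txn1* ratio was 0.867 in DMSO + LPS and 1.12 at 32 µM, and the *Srxn1* to *Prdx1* ratio 0.121 and 0.103. At 10 µM and between 32 and 10 µM, fewer of the 10 and fewer of all genes passed when some libraries were left out. EdgeR on the 4 libraries compared left 0 for both of these comparisons, where 0.0824% and 0% of all genes passed as higher. DESeq2 passed 4 and 6 on these libraries, against 0.812% and 0.47% of all genes. The causes of these changes were not tested.

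The replicate numbers did not pair all conditions. Deviations of same-numbered libraries from their condition means correlated at 0.50 to 0.85 between neighboring doses and between 32 µM and DMSO, but at -0.43 to -0.21 with DMSO + LPS. With the replicate block, calls over all genes were 616 against 592 at 32 µM, 174 against 122 at 10 µM and 4097 against 3995 with LPS, and among the 10 genes *Txn1* was also called with LPS (log2 0.72, adjusted p = 0.0122). Calls among the 10 did not change in the other comparisons, but the number that passed rose from 6 to 7 at 32 µM, from 3 to 5 at 10 µM, from 7 to 8 as higher with LPS and from 5 to 6 between 32 and 10 µM, while the share of all genes that passed as higher became 4.89%, 1.31%, 27% and 0.938%. With the numbers of DMSO + LPS exchanged, calls were 655 at 32 µM, 223 at 10 µM and 4180 with LPS over all genes, and 4, 0 and 7 among the 10.

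Directions turned only for fold changes that were not called. For *Prdx6* the log2 value was -0.00073 at 32 µM with no count filter, -0.019 at 3.2 µM with the short-transcript score, -0.20 and -0.052 with LPS and -0.18 and -0.015 for 32 µM against DMSO (library size alone and the score). With the score, *Gss* was at -0.10 and *Slc7a11* at 0.00068 at 3.2 µM, and *Txn1* at 0.15 between 32 and 10 µM. When libraries were left out, the log2 values of *Txn1* ranged from -0.079 to 0.56 at 32 µM, from -0.43 to 0.27 between 32 and 10 µM and from -0.29 to 0.34 between 10 and 3.2 µM. Those of *Prdx6* ranged from -0.012 to 0.045 at 32 µM, -0.024 to 0.16 at 10 µM, -0.014 to 0.052 at 3.2 µM, -0.038 to 0.025 with LPS, -0.16 to 0.041 between 32 and 10 µM, -0.044 to 0.15 between 10 and 3.2 µM and -0.037 to 0.046 for 32 µM against DMSO. *Slc7a11* ranged from -0.092 to 0.19 at 10 µM and from -0.011 to 0.26 between 10 and 3.2 µM. *Gss* ranged from -0.0084 to 0.041 at 3.2 µM and from -0.0014 to 0.43 between 32 and 10 µM, and *Gsr* from -0.066 to 0.040 at 3.2 µM. The mean counting error exceeded the SD between the 2 libraries in 4 of the 50 combinations of gene and condition, among them *Srxn1* at 32 µM (0.423% against 0.108%) and *Gss* in DMSO + LPS (2.77% against 1.67%).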

Other observations

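With LPS alone, genes of the wider lists moved in both directions, as genes did over all. Of the 38 tested, 12 passed as higher and 9 as lower, against 25.2% and 25.8% of all genes. Among genes that use glutathione, 3 were called higher and 1 lower of 10 tested. *Glrx* was described with the doses of **1**. *Esd*, an S-formylglutathione hydrolase gene, rose 3.19-fold (adjusted p = 2.15e-08, edgeR). *Gpx3*, encoding the secreted glutathione peroxidase, rose 5.59-fold (adjusted p = 4.57e-04) at a low level. Its means were 0.244 CPM in DMSO and 1.37 CPM in DMSO + LPS, with 10 to 73 counts per library. *Gpx4*, encoding the peroxidase that acts on lipid peroxides, was lower at -0.71 on the log2 scale (adjusted p = 0.00332). Among supply and breakdown genes, 3 were called higher and 1 lower of 10 tested. *Slc3a2*, whose product pairs with xCT in the cystine transporter, rose 1.85-fold (adjusted p = 1.43e-06), against 13.7-fold for *Slc7a11*. *Chac1*, which degrades glutathione, rose 3.34-fold (adjusted p = 5.11e-06), and *Oplah*, which returns 5-oxoproline to glutamate, stood at -1.01 on that scale (adjusted p = 0.00105). Among other thioredoxin and peroxiredoxin genes, 2 were called higher and 2 lower of 18 tested. *Prdx5* rose 2.60-fold (adjusted p = 2.73e-04) and *Txnl1* 1.56-fold (adjusted p = 2.66e-05), while the sestrin gene *Sesn1* stood at -1.70 (adjusted p = 4.18e-07) and *Msrb1*, a methionine sulfoxide reductase gene, at -0.94 (adjusted p = 0.00136). Over all genes, 14.6% were called higher and 13.6% lower in this comparison, and these genes were named after their values had been seen.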
